A study of Homo sapiens with 6 samples.

Results

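The aryl hydrocarbon receptor (AHR) pathway and its inducible cytochrome P450 (CYP) genes were examined in prostate tumors from mice given an oral plant extract. The list held 9 genes, AHR, ARNT, AHRR, TIPARP, CYP1A1, CYP1A2, CYP1B1, CYP2E1 and ALDH3A1. All 9 were found among the 24000 gene entries of the deposited table by matching their symbols, and AHRR was found only inside an entry joined with PDCD6. The list was chosen by the pathway and by an earlier reading of the values of these same tumors, so the levels and differences of its genes are given as descriptions with their errors. How many of them pass a threshold is given beside the share or count of all entries that do, with nothing read from it. The question was whether an oral extract leaves the mark of an AHR response in the tumor.

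The tumors were grown from PC-3, 1 established line of androgen-independent human prostate cancer cells, in nude mice, which lack mature T cells but keep the rest of their stroma and innate immune cells. According to the methods, PC-3 cells were injected into the anterior prostate of male athymic mice, treatment was by gavage, and tumors were collected singly. A group of 3 tumors came from vehicle-treated mice and a group of 3 from mice treated with WCE, the extract of the herb Wedelia chinensis standardized for luteolin, apigenin and wedelolactone. The labels give both groups 10 weeks of treatment and name neither a dose nor the age of the mice, while the paper's text gives another duration for oral treatment of such tumors, and the libraries were made from mRNA with the strand kept. Levels are FPKM (fragments per kilobase of a transcript, relative to all fragments mapped in that library) as the authors deposited them. In such bulk tumors, fewer cells of a type and less RNA per cell cannot be told apart.

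AHR is a transcription factor held in the cytoplasm by a chaperone complex until it binds a ligand, which may be a dioxin, a polycyclic hydrocarbon, a tryptophan metabolite such as kynurenine or a plant flavonoid. It then enters the nucleus, pairs with ARNT and binds xenobiotic response elements with the core GCGTG. The CYP1 enzymes CYP1A1, CYP1A2 and CYP1B1 are its best known targets, and CYP1A1 is commonly read as the marker of an active receptor. AHRR, a repressor that competes for ARNT, and TIPARP, a mono-ADP-ribosyltransferase that limits the receptor, are induced by AHR and close a feedback loop. ALDH3A1, an aldehyde dehydrogenase, belongs to the same gene battery, whereas CYP2E1, the ethanol-metabolising P450 of the liver, is not a classical AHR target.

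The upstream sequences of 4 of the genes are shown because the results turn on CYP1A1, the usual AHR marker, on CYP2E1, whose groups lay apart, and on the feedback genes TIPARP and AHRR. Each is the 250 bases before the RefSeq transcription start in GRCh38.p14, written in the direction of transcription, with the core GCGTG or its reverse complement CACGC in capitals. They lie at chr15:74725529-74725778 on the minus strand for CYP1A1, and on the plus strand at chr3:156674340-156674589 for TIPARP, chr5:321464-321713 for AHRR and chr10:133527113-133527362 for CYP2E1.
CYP1A1: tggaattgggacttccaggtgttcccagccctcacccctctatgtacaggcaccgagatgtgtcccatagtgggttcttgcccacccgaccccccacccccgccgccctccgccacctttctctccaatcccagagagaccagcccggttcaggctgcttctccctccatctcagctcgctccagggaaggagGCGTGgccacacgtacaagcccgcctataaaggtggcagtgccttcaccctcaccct
TIPARP: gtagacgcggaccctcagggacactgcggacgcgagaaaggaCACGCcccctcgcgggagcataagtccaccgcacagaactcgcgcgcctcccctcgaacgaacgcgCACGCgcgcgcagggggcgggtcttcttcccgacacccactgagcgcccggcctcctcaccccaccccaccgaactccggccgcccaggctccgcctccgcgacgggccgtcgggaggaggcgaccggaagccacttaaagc
AHRR: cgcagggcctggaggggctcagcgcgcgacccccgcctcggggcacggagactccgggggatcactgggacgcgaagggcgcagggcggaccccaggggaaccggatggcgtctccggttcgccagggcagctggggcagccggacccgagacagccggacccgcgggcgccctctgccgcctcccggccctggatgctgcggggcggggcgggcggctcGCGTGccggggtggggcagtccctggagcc
CYP2E1: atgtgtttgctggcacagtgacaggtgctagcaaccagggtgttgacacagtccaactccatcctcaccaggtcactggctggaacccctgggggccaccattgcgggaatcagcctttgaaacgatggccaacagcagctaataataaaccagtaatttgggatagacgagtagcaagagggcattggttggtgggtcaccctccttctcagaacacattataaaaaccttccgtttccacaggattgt

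CYP1A1 had 1 core, which began 57 bases before its start. TIPARP had 2, beginning 208 and 142 bases before the start shown, and AHRR had 1, beginning 30 bases before the start shown. A second AHRR start, at position 322610, had 2 cores in its window, beginning 247 and 42 bases before it, and the windows of the other TIPARP starts had 0. The windows of CYP2E1, AHR, ARNT and CYP1A2 also held 0 cores within 250 bases. RefSeq windows were matched for 7 of the 9 genes, with CYP1B1 and ALDH3A1 not matched. The core is short, and 11313 of 35116 windows of this length, 32.2%, contain it. A match describes the letters and not a bound site.

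Relative depth could be read from the steps of the low values, and it lay between 64.8% and 100% of vehicle replicate 3 in 5 tumors, whereas WCE replicate 1 stood at 25%. The libraries of vehicle replicate 3 and of WCE replicate 1 were nearly identical libraries with different labels. Their median absolute log2 difference was 0.0276 over 1915 entries of at least 50 FPKM, against 0.095 to 0.247 for the other 14 pairs, and all 15805 entries detected in WCE replicate 1 were also detected in vehicle replicate 3. Vehicle replicate 1 was the tumor farthest from the rest, at 0.196 to 0.247 from each of the other 5, whereas the 9 remaining pairs besides the nearly identical pair lay at 0.095 to 0.199. For the 7 genes of the list that were tested, the difference is therefore also given without the nearly identical libraries, as 2 tumors against 2. The markers of prostate epithelial cancer cells KRT8, KRT18, KRT19, EPCAM and CDH1 were above 1 FPKM in every tumor, with a sum of 1203 to 1447 FPKM under vehicle and 1146 to 1406 under WCE. KLK3 and KLK2, which mark androgen-responsive prostate cells, were at 0 in all 6 tumors.

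The receptor and its partner were both well expressed, and the CYP1 enzymes were close to or at 0. Of the 9 genes, CYP2E1 alone separated the groups, with every WCE-treated tumor above every vehicle-treated tumor, as in 6.37% of all entries tested. The range of levels ran from a mean of 125 FPKM for the joined AHRR and PDCD6 entry under vehicle down to 0 for CYP1A2. FPKM is scaled by transcript length, so levels can be set side by side between genes.

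**Figure D1:**
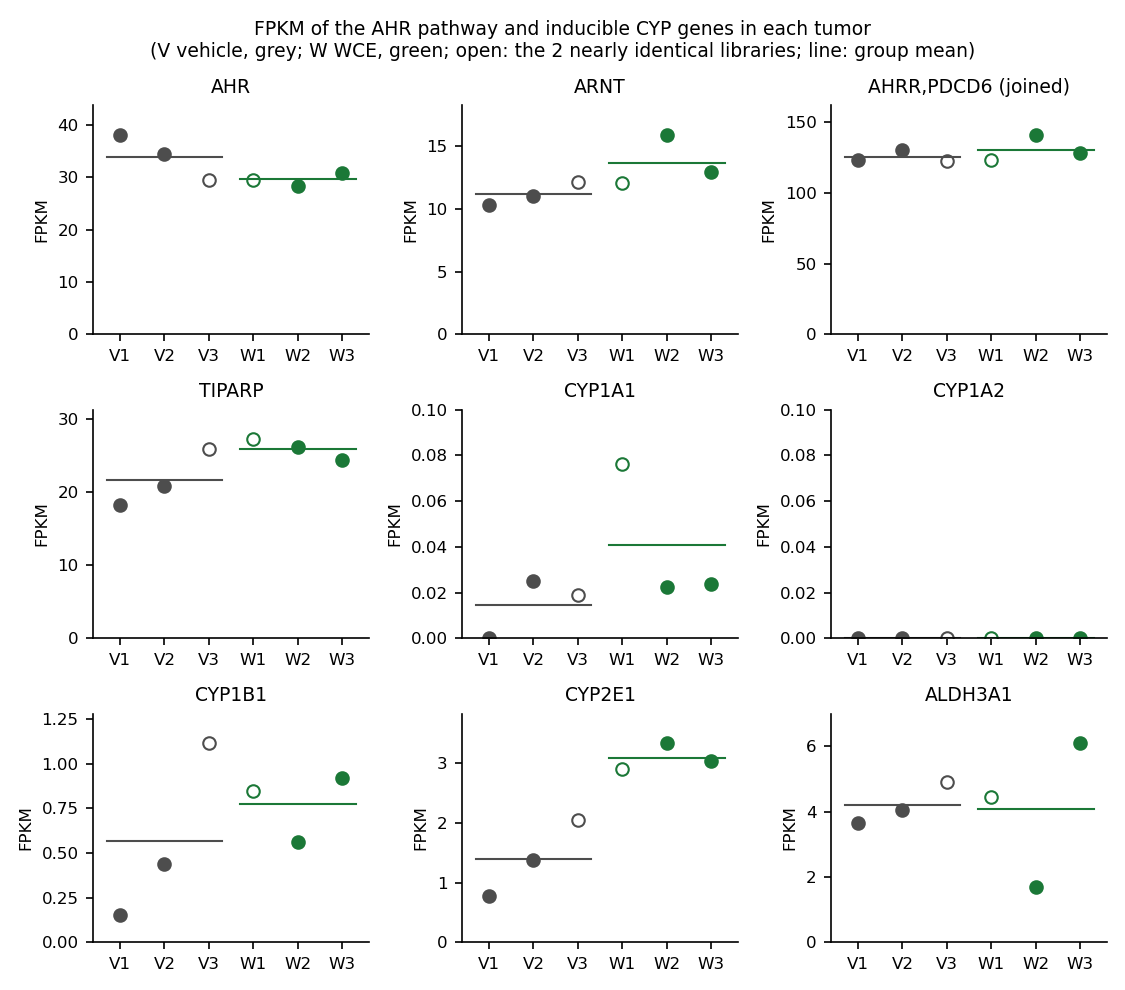
FPKM of each of the 9 genes (vertical axis, its own linear scale from 0 in each panel) in the 3 vehicle-treated (V1 to V3, grey) and 3 WCE-treated tumors (W1 to W3, green), with lines at the group means and open circles for the nearly identical libraries V3 and W1. CYP2E1 is the panel in which the groups do not overlap, CYP1A1 stays under 0.08 FPKM and CYP1A2 lies at 0 in all tumors.

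AHR was at 37.98, 34.43 and 29.41 FPKM in vehicle replicates 1, 2 and 3. In WCE replicates 1, 2 and 3 it was at 29.54, 28.4 and 30.75 FPKM. The highest values were those of vehicle replicates 1 and 2, while the groups overlapped because vehicle replicate 3 lay below WCE replicates 1 and 3. Means were 33.9 ± 4.31 FPKM (SD, n = 3) under vehicle and 29.6 ± 1.18 (SD, n = 3) under WCE, a difference of -0.19 ± 0.11 (SE) in mean log2(FPKM + 1). Without the nearly identical libraries the difference was -0.28 ± 0.11, and leaving out vehicle replicate 1 alone gave -0.10 ± 0.11. The mean level of AHR, listed at chr7:17338276-17385775, was higher than that of 87.5% of all entries, so transcripts of the receptor were plentiful under both treatments.

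ARNT, the obligate partner of AHR and of hypoxia-inducible factors, lay in the other direction. It was at 10.25, 10.99 and 12.13 FPKM under vehicle and at 12.06, 15.82 and 12.89 FPKM in the WCE-treated tumors, numbered 1 to 3. WCE replicate 2 stood highest, and vehicle replicate 3 lay just above WCE replicate 1. The means were 11.1 ± 0.944 and 13.6 ± 1.98 FPKM (SD, n = 3 each), a log2 difference of 0.26 ± 0.13 (SE) that was 0.40 ± 0.14 without the nearly identical libraries. Leaving out WCE replicate 2 brought the difference to 0.16, the lowest value over all the alternatives run. ARNT is listed at chr1:150782181-150849244.

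The feedback genes were measured at unequal certainty. AHRR is listed only as an entry shared with PDCD6, a neighbouring and broadly expressed calcium-binding protein gene, at chr5:271736-438405, and its value could not be apportioned between them. That entry was at 122.7, 130 and 122 FPKM under vehicle and 122.9, 140.4 and 127.9 FPKM under WCE. The groups overlapped, and the log2 difference of 0.06 ± 0.09 (SE) was smaller than its error. As 2 against 2 the difference was 0.08 ± 0.11. No statement on AHRR itself can be drawn from this entry.

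TIPARP had an entry of its own at chr3:156390960-156424557, a locus that the table also gives to its antisense gene TIPARP-AS1, and whether strand was used in the quantification is not given in the sources used here. It was at 18.24, 20.79 and 25.92 FPKM in vehicle replicates 1, 2 and 3. The WCE-treated tumors were at 27.17, 26.14 and 24.42 FPKM. Vehicle replicates 1 and 2 were the lowest, and vehicle replicate 3 lay within the range of the WCE-treated tumors. Means were 21.7 ± 3.91 and 25.9 ± 1.39 FPKM (SD, n = 3 each), a log2 difference of 0.26 ± 0.14 (SE). As 2 against 2 it was 0.36 ± 0.12, and leaving out vehicle replicate 1 or vehicle replicate 3 gave 0.15 or 0.39. The promoter shown above with 2 cores belongs to this gene, and of the 3 matched genes with a core it was the one with a level well above 0 in an entry of its own.

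CYP1A1, the usual marker of AHR activity, was barely detected. It was at 0, 0.0252 and 0.01902 FPKM in vehicle replicates 1, 2 and 3, and at 0.07599, 0.02233 and 0.02373 FPKM in the WCE-treated tumors. WCE replicate 1 was highest by FPKM, with a value 3.99 times that of vehicle replicate 3. That tumor also had the shallowest library, and its depth was lower than that of vehicle replicate 3 by a factor of 4. When each FPKM was multiplied by the relative depth of its tumor, the product was 0.019 in all 5 tumors above 0, with a spread of 0.049% between them. The 5 tumors thus stood on one and the same step of the read scale, and vehicle replicate 1 stood at 0. No difference between the groups was detectable at this depth. CYP1A1, listed at chr15:75011883-75017877, fell under the minimum mean of 0.5 FPKM and was not tested, and the core in the promoter shown above came with no level that could be compared.

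**Figure D2:**
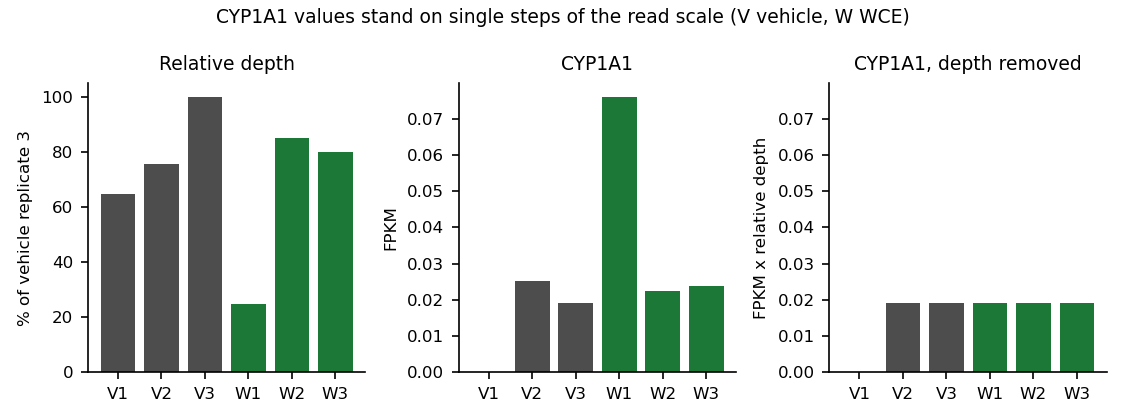
Relative depth of each tumor in % of vehicle replicate 3 (left), FPKM of CYP1A1 (middle) and the product of FPKM and relative depth (right), as bars from 0 for vehicle-treated (V, grey) and WCE-treated tumors (W, green). The high FPKM of W1 sits beside a depth of 25%, and the product is 0.019 in each of the 5 tumors above 0.

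CYP1A2, the neighbour of CYP1A1 on chromosome 15 at chr15:75041184-75048941 and chiefly a liver enzyme, was listed at 0 in all 6 tumors and was not tested. CYP1B1, which metabolises oestrogens and polycyclic hydrocarbons and is the CYP1 enzyme most often found outside the liver, was the highest of the 3. It is listed at chr2:38294746-38303323 and was at 0.156, 0.4381 and 1.113 FPKM under vehicle. The WCE-treated tumors were at 0.8448, 0.5612 and 0.9173 FPKM. Vehicle replicate 3 was the highest of all 6 and vehicle replicate 1 the lowest, so the vehicle group spanned the whole WCE group. The log2 difference was 0.22 ± 0.23 (SE), and 0.42 ± 0.20 without the nearly identical libraries. It came to 0.02 without vehicle replicate 1 and to 0.46 without vehicle replicate 3, so it depended on which vehicle-treated tumors were included. With a pseudocount of 0.1 in place of 1 it was 0.64.

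CYP2E1 differed most. It was at 0.7774, 1.377 and 2.044 FPKM in vehicle replicates 1, 2 and 3. In WCE replicates 1, 2 and 3 it was at 2.89, 3.323 and 3.023 FPKM. The groups did not overlap, and 0.846 FPKM lay between the highest vehicle-treated tumor, replicate 3, and the lowest WCE-treated tumor, replicate 1. The nearly identical libraries thus stood on either side of this gap. The means were 1.40 ± 0.634 FPKM (SD, n = 3) under vehicle and 3.08 ± 0.222 (SD, n = 3) under WCE, a ratio of 2.2. The difference in mean log2(FPKM + 1) was 0.80 ± 0.20 (SE), which understates the change of a gene at so low a level and became 1.17 with a pseudocount of 0.1. Without the nearly identical libraries the difference was 1.02 ± 0.19. It ran from 0.60 without vehicle replicate 1 to 0.99 when each tumor was left out in turn.

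CYP2E1 also differed between the nearly identical libraries. Between vehicle replicate 3 and WCE replicate 1, log2(FPKM + 1) of CYP2E1 was higher in WCE replicate 1 by 0.35. Over the 3127 entries with a mean of 1 to 5 FPKM the median absolute difference between these libraries was 0.0945 and the 90th percentile 0.268, and CYP2E1 exceeded 95.1% of them. CYP2E1 was picked out with its values known, and WCE replicate 1 had 25% of the depth of vehicle replicate 3. Nothing is therefore read from this rank, and the part of read number in it was not tested. For AHR, ARNT, the AHRR entry and TIPARP the difference between these libraries was 0.0064, -0.0074, 0.011 and 0.066. CYP2E1 is listed at chr10:135340867-135352620, and the promoter shown above carries 0 cores.

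Markers of other cell types were measured beside CYP2E1, since it is best known as a liver enzyme and nude mouse tissue surrounds the tumor. The table lists human gene entries, and whether reads of the mouse host were removed is not given in the sources used here, so these markers describe the entries and not the amount of host tissue. Of 6 hepatocyte markers 1, SERPINA1, was above 1 FPKM in every tumor and TTR was at 0 in all. Their sum was 4.92 to 34.5 FPKM under vehicle and 10.5 to 32.4 under WCE, most of it SERPINA1. ALB, which encodes albumin, was at 0.3808, 0.3862 and 0.4709 FPKM under vehicle and 0.4478, 1.237 and 0.7554 under WCE, a log2 difference of 0.34 ± 0.18 (SE) that was 0.52 ± 0.18 as 2 against 2. FGB, a fibrinogen chain, was at 0.4601, 1.117 and 0.8206 FPKM under vehicle and 0.6384, 3.826 and 1.711 under WCE, a log2 difference of 0.64 ± 0.37 (SE) that was 1.04 ± 0.34 as 2 against 2. Both were highest in WCE replicates 2 and 3, and the groups overlapped in each. The other hepatocyte markers above 0 did not share a direction. With all 6 tumors the log2 difference was -0.0003 for SERPINA1, and 0.15 for APOA1 and -0.29 for APOA2, which were not tested. Of the 3 hepatocyte markers tested, 0 passed the unadjusted threshold with all 6 tumors, while 2 were higher past it as 2 against 2, where 18.4% of all entries tested passed. The summed markers of androgen-responsive prostate cells, 5 genes with KLK3 and KLK2 at 0, lay at 12.4 to 24.1 FPKM under vehicle and 24.9 to 27.4 under WCE. The 5 endothelial markers summed to 1.2 to 3.37 FPKM against 3.21 to 7.6, with CDH5 and VWF under 0.1 FPKM in every tumor, and the 5 myeloid markers, nearly all of it CD68, to 25.8 to 41 against 39.8 to 44.4. Among the endothelial markers KDR reached 5.117 FPKM in WCE replicate 3 and 1.587 in WCE replicate 2, while PECAM1 and TEK overlapped between the groups. The 6 fibroblast markers summed to 42.1 to 56.4 FPKM under vehicle and 12.8 to 55.9 under WCE. Of 16 marker genes tested with limma, KDR, of endothelial cells, was higher and EPCAM, CDH1 and LUM, of epithelial cells and fibroblasts, were lower at an unadjusted p under 0.05, 4 of 16 beside 7.1% of all entries tested, and 0 passed after adjustment. The androgen-responsive sum separated the groups in the same order as CYP2E1, and the part of these markers in the result was not tested.

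ALDH3A1 was at 3.653, 4.051 and 4.913 FPKM under vehicle and at 4.433, 1.68 and 6.087 FPKM under WCE. WCE replicate 2 was the lowest of the 6 tumors and WCE replicate 3 the highest. Means were 4.21 ± 0.644 and 4.07 ± 2.23 FPKM (SD, n = 3 each), and the log2 difference of -0.14 ± 0.33 (SE) was smaller than its error. Its sign depended on WCE replicate 2, without which it was 0.26, and limma array weights gave 0.11. As 2 against 2 the difference was -0.15 ± 0.45. ALDH3A1 is listed at chr17:19641298-19651746.

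**Figure D3:**
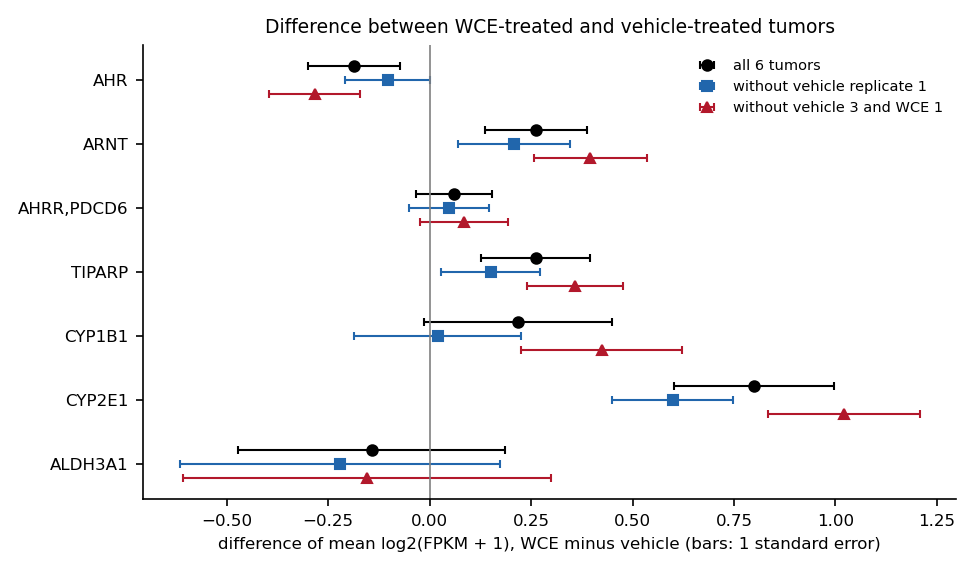
Differences in mean log2(FPKM + 1), WCE minus vehicle (horizontal axis), for the 7 genes above the minimum level, with bars of 1 standard error from limma, for all 6 tumors (black), without vehicle replicate 1 (blue) and without vehicle replicate 3 and WCE replicate 1 (red). CYP2E1 lies farthest from 0 at 0.80 with all tumors, 0.60 and 1.02 in the other fits. The bars of ALDH3A1 and of the joined AHRR,PDCD6 entry cross 0 in all 3.

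The order of the levels was the same in nearly all tumors. AHRR with PDCD6 stood above AHR by a ratio of means of 4.02, AHR above TIPARP by 1.34, TIPARP above ARNT by 1.92 and ARNT above ALDH3A1 by 2.99, each in 6 of 6 tumors and with no overlap of ranges. ALDH3A1 stood above CYP2E1 by a ratio of 1.85 in 5 of 6 tumors, and these neighbours overlapped. CYP2E1 stood above CYP1B1 in 6 of 6 tumors by 3.33 although their ranges over tumors overlapped, and CYP1B1 stood above CYP1A1 by 24.2. Of the 8 genes above 0 in any tumor, vehicle replicate 1 was the lowest tumor for 5 and the highest for 1, and WCE replicate 2 was the lowest for 2 and the highest for 3.

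Across the whole table, limma with a mean-variance trend on 13287 entries called 1 entry, the small RNA gene SNORA76, named here after its value was seen, at an adjusted p under 0.05, which is 0.00753% of those tested. At an unadjusted p under 0.05 it called 944 entries, 7.1%. Of the 9 genes, 7 reached the minimum level and were in this fit. The adjusted threshold was passed by 0 of the 7 and the unadjusted threshold by 1, CYP2E1. Without the nearly identical libraries 3 passed the unadjusted threshold, ARNT, TIPARP and CYP2E1, in a fit in which 2449 of all 13287 entries, 18.4%, did so. All WCE-treated tumors lay above all vehicle-treated tumors in 846 entries, 6.37%, and below them in 850, 6.4%, and among the 7 genes this held for 1 upward and 0 downward. The 7 genes had a median log2 difference of 0.22, with 5 higher and 2 lower under WCE, beside -0.0063 over all entries tested. The 7 reached the minimum level by their own values and were chosen with these tumors known, so nothing is read from these counts.

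The genes whose pattern over the 6 tumors was most like that of each of these were found by Pearson's r of log2(FPKM + 1). For CYP2E1 they were ABTB1 and MSTO2P, with r of 0.998 and 0.997. RPUSD3 and FAM58A were nearest to AHR at 0.998 and 0.994, and ZMAT3 and ZBTB40 to ARNT at 0.994 each. The joined FAM156A,FAM156B entry came nearest to TIPARP at 0.993, and ZZZ3 and LOC100506124 to the joined AHRR entry at 0.994 and 0.993. LOC155060 and HEG1 were nearest to CYP1B1 at 0.987 and 0.985, and IL33 and LPHN3 to ALDH3A1 at 0.990 and 0.976. Such values were common with 6 tumors, of which 2 were nearly identical libraries: 133 entries exceeded 0.95 for CYP2E1, 176 for AHR and 9 for ALDH3A1.

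The other genes of the pathway were taken from 5 lists of 63 genes in 62 entries, of which 39 were tested. At the unadjusted threshold 0 were higher and 2 lower under WCE, SERPINB2 and KYNU, a share below the 7.1% of all entries tested, and 0 of 39 passed after adjustment. Without the nearly identical libraries 1 was higher and 5 lower at the unadjusted threshold, a share below the 18.4% of all entries in that fit, and again 0 passed after adjustment. Groups did not overlap in 3 of the 39, SERPINB2, KYNU and the chaperone gene HSP90AB1, beside 1696 of all 13287 entries, 12.8%, in either direction. Among entries under the minimum level, groups also lay apart for TDO2 and CYP2B6, higher under WCE, and for EREG and GSTA2, lower. These were not tested, no share of all entries was worked out at that level, and nothing is read from them.

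Among 12 genes of the AHR complex and its cofactors, 11 were tested, 0 passed the unadjusted threshold in either direction, and the median log2 difference was 0.05, with 8 higher and 3 lower. HSP90AA1, the inducible HSP90 chaperone that holds unliganded AHR and the gene of the highest level in this list, was at 993 ± 210 FPKM (SD, n = 3) under vehicle and 859 ± 22.2 (SD, n = 3) under WCE. Its vehicle mean rested on replicate 1, at 1235 FPKM, while the other 5 tumors lay between 833.3 and 877.2, and the log2 difference of -0.19 came to -0.02 without that tumor. ARNT2, the paralog of ARNT found mostly in brain and kidney, was at most 0.1338 FPKM and was not tested.

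Of the 14 other AHR-inducible genes, listed as 13 entries because UGT1A1 and UGT1A6 share a joined UGT1A entry, 9 entries were tested, with 1 higher and 8 lower and a median log2 difference of -0.13. Over all entries tested 6459 were higher and 6828 lower. SERPINB2, which encodes plasminogen activator inhibitor 2, was at 22.82, 16.5 and 16.66 FPKM under vehicle and 14.46, 6.61 and 11.55 under WCE. All WCE-treated tumors lay below all vehicle-treated tumors, and the log2 difference was -0.77 ± 0.26 (SE), with an unadjusted p of 0.0187 and an adjusted p of 0.623 in limma. Its unadjusted p was 0.0703 without vehicle replicate 1, 0.0593 with no filter on low values and 0.0835 without moderation. As 2 against 2 its log2 difference was -1.06 ± 0.28 (SE), with limma p-values of 0.0124 unadjusted and 0.2 adjusted. HES1, a Notch target and the gene of the highest level in this list, was at 62.5 ± 10.8 and 56.0 ± 10.0 FPKM (SD, n = 3 each), a log2 difference of -0.16 ± 0.17 (SE). NQO1, a quinone reductase shared by the AHR and NFE2L2 responses, had a log2 difference of -0.12 ± 0.14 (SE), and the UGT1A entry one of 0.01 ± 0.34 (SE). GSTA1, a glutathione transferase of liver and gut, was listed at 0 in all 6 tumors.

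The 11 genes of tryptophan and kynurenine metabolism include the enzymes that make and remove a natural AHR ligand. Of 8 tested, 0 were higher and 1 lower at the unadjusted threshold, and the median log2 difference was -0.06, with 3 higher and 5 lower. KYNU, kynureninase, which breaks kynurenine down, was at 9.84, 9.24 and 9.22 FPKM under vehicle and 8.26, 5.91 and 7.64 under WCE. The groups did not overlap, and the log2 difference was -0.35 ± 0.13 (SE), with an unadjusted p of 0.0299 and an adjusted p of 0.623 in limma. The unadjusted p was over the threshold without moderation, at 0.0574, and was 0.0751 without vehicle replicate 1, 0.0608 without vehicle replicate 2, 0.0575 without vehicle replicate 3, 0.109 without WCE replicate 2 and 0.05 without WCE replicate 3. As 2 against 2 the log2 difference of KYNU was -0.45 ± 0.15 (SE), with limma p-values of 0.0304 unadjusted and 0.23 adjusted. IDO1, the enzyme that starts the pathway outside the liver, had a log2 difference of 0.34 over a range of 1.847 to 6.236 FPKM. TDO2, which starts it in liver, was at 0.0474 to 0.09203 FPKM under vehicle and 0.1226 to 0.1915 under WCE and was not tested. The joined IL4I1,NUP62 entry, the highest of this list, was at 48.4 ± 6.81 and 42.5 ± 2.50 FPKM (SD, n = 3 each).

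The 19 other xenobiotic CYP genes with their receptors and electron donors were mostly under the minimum level, and 6 were tested. CYP2C19, a drug-metabolising enzyme of the liver, was listed at 0 in all 6 tumors, and CYP3A4, the main drug-metabolising P450 of liver and gut, was at most 0.07058 FPKM. CYB5A, cytochrome b5, an electron donor to P450 enzymes and the highest of this list, was at 90.5 ± 22.4 FPKM under vehicle and 66.8 ± 7.43 under WCE (SD, n = 3 each), a log2 difference of -0.41 with an unadjusted p of 0.0612 in limma. POR, the reductase that all microsomal P450 enzymes need, had a log2 difference of 0.15. In this list 0 of 6 passed the unadjusted threshold with all 6 tumors, and 2 were higher and 4 lower. As 2 against 2, 2 genes were lower past it, CYB5A among them, where 18.4% of all entries tested passed. CYB5A then had a log2 difference of -0.57 ± 0.15 (SE), with limma p-values of 0.0131 unadjusted and 0.2 adjusted.

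Of 7 other aldehyde dehydrogenases 5 were tested and 0 passed the unadjusted threshold, with 3 higher and 2 lower. ALDH1A3, a retinaldehyde dehydrogenase and the highest of them, was at 75.3 ± 6.93 and 79.0 ± 11.2 FPKM (SD, n = 3 each), a log2 difference of 0.06 that turned to -0.05 without WCE replicate 2. ALDH1A1, its paralog, varied most between tumors among the 5 tested, from 0.1241 FPKM in WCE replicate 2 to 23.4 in WCE replicate 1.

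**Figure D4:**
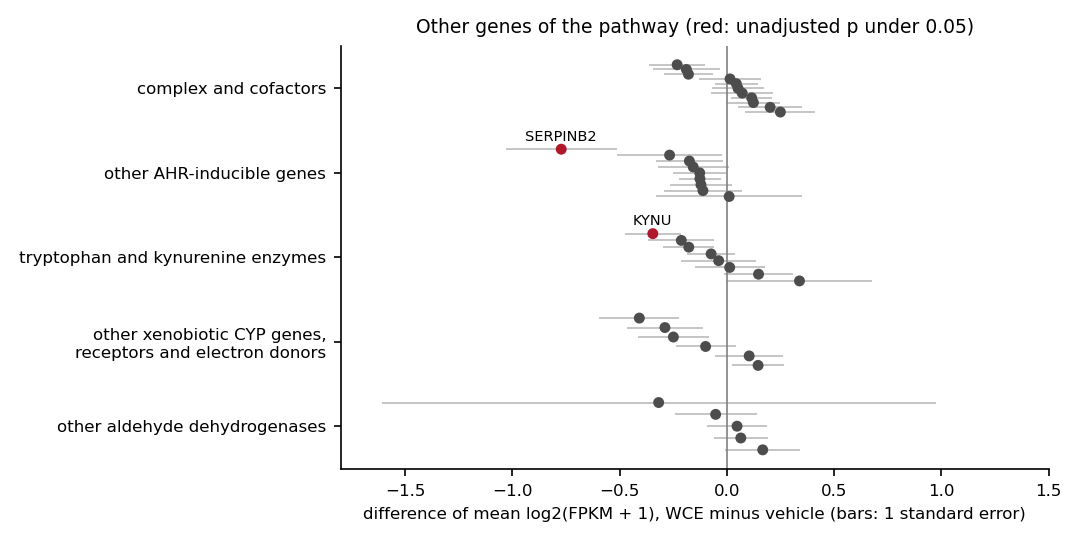
Difference in mean log2(FPKM + 1), WCE minus vehicle (horizontal axis), of the 39 tested entries in the 5 lists of other pathway genes (rows), each a point with a bar of 1 standard error from limma, red where the unadjusted p is under 0.05. SERPINB2 at -0.77 and KYNU at -0.35 are the points in red, and the long bar among the aldehyde dehydrogenases is ALDH1A1.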

How the data were processed

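RNA-seq was analysed for 3 vehicle-treated and 3 WCE-treated PC-3 tumors, matched to columns by the sample labels. The authors deposited FPKM values per gene entry in a Cufflinks layout, and 0 columns were left unused. The submitters' processing notes name TopHat2 2.0.13, Cufflinks, hg19 and mm10 without giving roles, so loci are printed as listed, counted from 1. Scaling between tumors and absolute depth are not given in the sources used here, so no counting intervals are given. Tumors were collected singly according to the methods, and p-values and errors treat every library as a separate tumor. Whether this holds for the nearly identical libraries is not given in the sources used here. With them included, p-values and errors may not measure the spread between separate tumors.

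FPKM values were changed to log2(FPKM + 1). Entries with a mean of at least 0.5 FPKM were tested between groups by limma 3.58.1 (R 4.3.3, mean-variance trend, two-sided test, Benjamini-Hochberg adjustment over 13287 entries, threshold 0.05). Relative depth was taken from the commonest ratio of low values, over entries above 0 in at most 3 tumors, in Python 3.11.15. Both steps were tested on simulated data of independent libraries. These held no nearly identical pair, so the effect of such a pair on errors and p-values was not tested. The genes and lists were chosen with earlier results of these data known. Named were all 9 genes, each list's entries under the unadjusted threshold and its highest entry, and the 2 entries nearest to each gene, of which 1 is not reported here. SNORA76, HSP90AB1, ARNT2, NQO1, UGT1A, GSTA1, GSTA2, EREG, IDO1, TDO2, CYP2B6, CYP2C19, CYP3A4, POR and ALDH1A1 were added after their values were seen. KYAT1 and KYAT3 were matched through the older symbols CCBL1 and CCBL2, the second in a joined entry.

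Alternatives were the pseudocount, filter, scaling, trend, an unmoderated test, array weights, a replicate block, each tumor left out, and the nearly identical libraries left out together. Promoter windows came from RefSeq tables of GRCh38.p14.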

Additional observations from a re-analysis of the deposited data

How the results depend on the processing

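Over 18 alternatives, the difference of ARNT, TIPARP, CYP1B1 and the AHRR entry stayed positive and that of AHR negative wherever a value was obtained. CYP1B1 gave no value at a minimum of 1 FPKM. ALDH3A1 was negative in 16 and positive in 2. ALDH1A3 turned to -0.0479 without WCE replicate 2, with a range of -0.0479 to 0.139 as each tumor was left out. Absolute depth is unknown, and WCE replicate 1 is shallowest. The causes of the changes below were not tested.

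Entries passing the adjusted threshold numbered 1, 0 with no filter and in the unmoderated test, 5 without the nearly identical libraries, and 1 to 7 with each tumor left out (7 without WCE replicate 1, 2 without WCE replicate 2). At the unadjusted threshold 944 passed, 1051 of 24000 with no filter, 593 in the unmoderated test, 3201 with array weights, 2449 without the nearly identical libraries and 219 to 2033 with each tumor left out. The counts were 423, 347 and 1771 without vehicle replicates 1, 2 and 3, and 2033, 235 and 219 without WCE replicates 1, 2 and 3. Of the 9 genes 1 passed, 3 without the nearly identical libraries and 1 to 4 with each tumor left out (4 without vehicle replicate 3, 2 without WCE replicate 1). These and the counts below stand beside the counts of all entries just given, out of 13287 tested, or 24000 with no filter. Nothing is read from them. Of the other pathway genes 2 passed, 4 with no filter, 0 in the unmoderated test, 10 with array weights, 6 without the nearly identical libraries and 0 to 6 with each tumor left out. The 4 with no filter were GSTA2, EREG, TDO2 and KYNU and did not include SERPINB2, and all but KYNU were under the minimum level. Of the marker genes 4 passed, 1 with no filter, 0 in the unmoderated test, 7 without the nearly identical libraries and 1 to 6 with each tumor left out.

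Tumors share only a number across groups: correlations of same-numbered deviations were -0.241, 0.16 and -0.0931. A replicate block gave 1 entry at the adjusted and 1049 at the unadjusted threshold, with 1 of the 9 genes among them.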
